A study of Mus musculus with 20 samples.

Results

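The 66 protein-coding genes of the mouse replication-dependent histone clusters, all those whose symbol begins with Hist1h, Hist2h, Hist3h or Hist4h, were followed through embryonic stem cell states in an rRNA-depleted RNA-seq table of 29692 genes. They comprised 6 genes for the linker histone H1, 18 for H2A, 18 for H2B, 11 for H3 and 13 for H4. The rule reads the symbol and the gene type. Mouse embryonic stem cells, which are pluripotent lines derived from the early embryo, had been grown with 10% FBS and LIF, a cytokine that maintains pluripotency. A flow cytometer separated them by Nanog and Sox2, transcription factors of the pluripotent state. State 3 had low levels of both, state 2 low Nanog but high Sox2, and state 1 high levels of both, and the total population was the remaining group. Each group had 3 RNA-seq libraries and 2 small RNA libraries, and no genotype, further treatment or cell line name is given in the labels. The tables hold 1 value per gene and group, made by the authors from these libraries, so no spread between libraries can be shown and no test over libraries was possible.

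Replication-dependent histone genes supply the histones that package newly copied DNA. They lie in clusters and are transcribed in S phase from bodies around the factor Npat. Their mRNAs generally end in a conserved stem-loop in place of a poly(A) tail, are bound there by Slbp, and are degraded when DNA synthesis stops. rRNA-depleted libraries, unlike poly(A)-selected ones, can count such messages. H2A, H2B, H3 and H4 form the nucleosome core, and H1 binds the DNA that enters and leaves it.

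The promoters differed by histone class in the short motifs they held, and the following upstream stretches are shown for genes whose differences between states, described later, were small, typical or large. Each holds the 130 bases before the RefSeq start in GRCm38.p6, 5′ to 3′ on the gene's strand, with searched motifs in capitals on either strand. The motifs were the octamer ATTTGCAT, which Pou2f1 and other Oct factors bind, the CCAAT box, the TATA motif TATAAA, the H1 box AAACACA, and a core of the site for the H4 gene factor Hinfp, GGTCCG. Hist1h1c lay at chr13:23738677-23738806, plus strand, and its capitals mark the H1 box and CCAAT. Hist1h4d lay at chr13:23581438-23581567, plus strand, and its capitals mark GGTCCG, the CCAAT box read on the other strand, and the TATA motif. Hist4h4 lay at chr6:136804432-136804561, minus strand, with GGTCCG in capitals. Hist1h4a, the H4 gene with the smallest difference between states, lay at chr13:23761250-23761379, minus strand, with CCAAT on the other strand. Hist1h2bg lay at chr13:23571270-23571399, plus strand, with the octamer and TATAAA. Hist3h2a lay at chr11:58954555-58954684, plus strand, with the octamer on the other strand and CCAAT on each strand. Hist3h2ba lay at chr11:58948781-58948910, plus strand, with the CCAAT box and the TATA motif at 2 places each.
Hist1h1c: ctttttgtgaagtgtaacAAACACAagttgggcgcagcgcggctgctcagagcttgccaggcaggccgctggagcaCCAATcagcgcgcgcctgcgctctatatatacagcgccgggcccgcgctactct
Hist1h4d: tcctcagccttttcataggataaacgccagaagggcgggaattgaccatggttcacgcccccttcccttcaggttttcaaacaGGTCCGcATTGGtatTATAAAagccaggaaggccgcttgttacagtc
Hist4h4: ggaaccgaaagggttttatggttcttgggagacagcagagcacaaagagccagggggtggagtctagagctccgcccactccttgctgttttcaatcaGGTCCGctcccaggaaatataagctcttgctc
Hist1h4a: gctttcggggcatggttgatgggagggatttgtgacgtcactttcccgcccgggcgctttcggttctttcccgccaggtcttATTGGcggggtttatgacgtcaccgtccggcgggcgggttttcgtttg
Hist1h2bg: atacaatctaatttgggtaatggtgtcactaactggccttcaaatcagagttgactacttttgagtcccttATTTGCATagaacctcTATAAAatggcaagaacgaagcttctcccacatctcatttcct
Hist3h2a: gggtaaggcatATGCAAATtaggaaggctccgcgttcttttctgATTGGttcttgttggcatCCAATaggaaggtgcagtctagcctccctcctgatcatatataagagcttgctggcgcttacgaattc
Hist3h2ba: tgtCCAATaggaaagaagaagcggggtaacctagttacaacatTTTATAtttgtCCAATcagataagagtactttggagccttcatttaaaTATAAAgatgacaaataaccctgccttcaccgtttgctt

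RefSeq windows from 250 bases before to 50 after the start were at hand for 60 of the 66 genes, and for comparison in 32851 windows over all genes. GGTCCG was in 11 of 12 H4 promoters, against 8.25% of all windows, and Hist1h4a was the one of these 12 without it. In Hist1h4b the motif lay after the start. The H1 box was in 5 of 6 H1 promoters, on the gene's strand, beginning 112 to 122 bases before the start, against 7.18% of all windows, and Hist1h1a was the H1 gene without it. The octamer was in 7 of 17 H2A promoters, each time on the opposite strand, and in 7 of 16 H2B promoters, each time on the gene's strand. It was in 1.74% of all windows and in 0 of the H1, H3 and H4 promoters. Windows of neighbouring H2A and H2B genes in opposite orientation can overlap. The same octamer is then counted for both genes, on opposite strands, as in Hist1h2ae and Hist1h2bg. CCAAT was in every H1, H2A, H2B and H3 promoter with a window but in 3 of 12 H4 promoters, against 37.4% of all windows. TATAAA was in 35 of 60, against 13.6% of all windows. Its place varied, with medians of -30.5 in H1, -32 in H2A, -94 in H2B, -89.5 in H3 and -79.5 in H4. Some matches lay after the start, as far as 30 in H2A and 41 in H4, or on the opposite strand. These matches describe letters and not bound factors, and their shares carry no test.

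State 1, the cells high for Nanog and Sox2, had the lowest value of the 4 groups for all 66 histone genes. The values summed over the 66 genes were 223976 in state 3, 239375 in state 2, 153382 in state 1 and 233076 in the total population. These sums made up 1.30% of all values in state 3, 1.42% in state 2, 0.865% in state 1 and 1.36% in the total population. State 3, state 2 and the total population thus lay close together, and state 1 lay below them. Relative to state 1 the summed value was 1.46-fold higher in state 3 and 1.56-fold higher in state 2. State 3 stood at 0.936 of state 2. Exact 95% Poisson intervals of the sums, which cover counting error only, ran from 223419 to 224533 in state 3, from 238868 to 239883 in state 2, from 152948 to 153817 in state 1 and from 232533 to 233620 in the total population. Spread between cultures is not in these intervals, and whether 1 library of state 1 decided the difference was not tested.

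**Figure D1:**
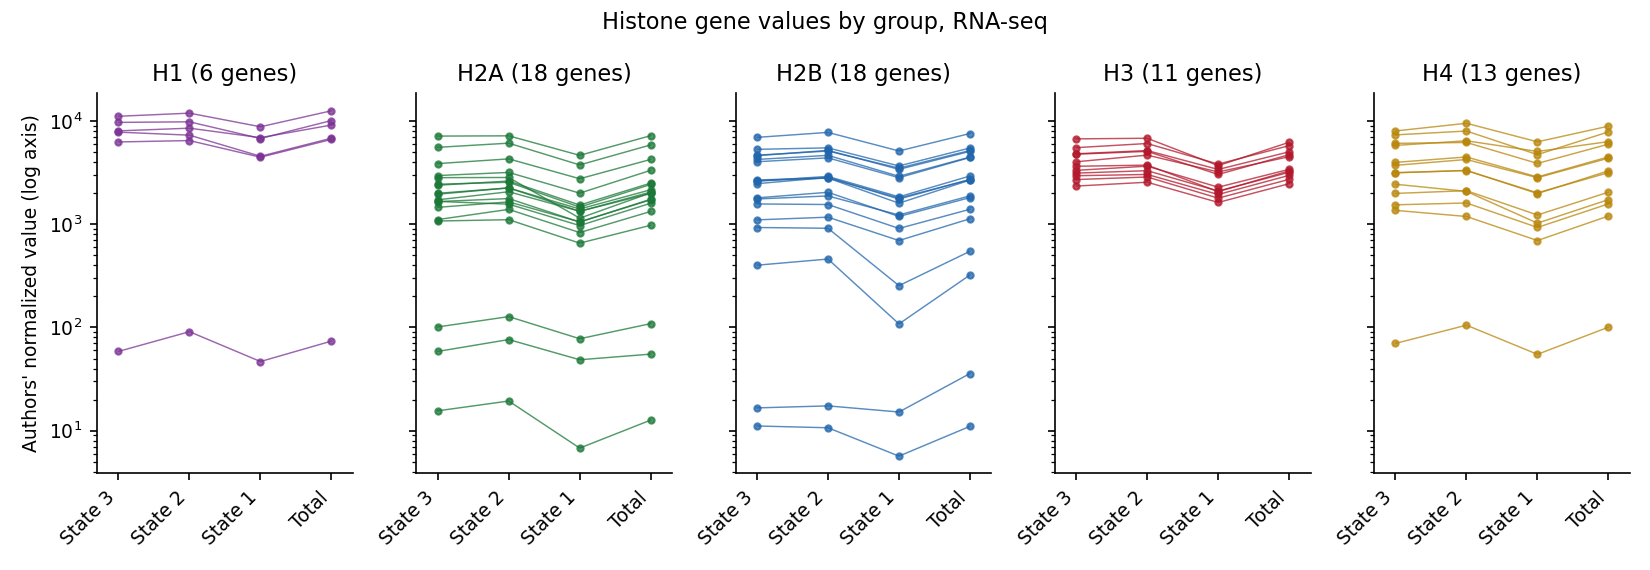
Values of all 66 histone genes in the 4 groups, as the authors' normalized value on a log axis, 1 line per gene and 1 panel per histone class. Every line has its lowest point at state 1, while state 3, state 2 and the total population lie near each other for most genes.

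Calls were made gene by gene. A pair of groups was called different where the authors' posterior probabilities, summed over the patterns that set these groups apart, reached 0.95, and ratios are log2 of value + 1 over value + 1. In state 3 versus state 1, 47 of 66 histone genes were higher and 0 lower, while 20.4% of all genes were called in either direction and 11.4% as higher. In state 2 versus state 1, 50 were higher and 0 lower, against 13.4% of all genes called and 7.11% called higher. Many of all genes had low values, whereas 63 of the histone genes had a mean of at least 50. Of 10757 other protein-coding genes with such a mean, 2370 were called higher and 2290 lower in state 3 versus state 1. In state 2 versus state 1, 1522 of them were higher and 1641 lower. The histone counts rest on an inferred order of the groups in the authors' patterns. With state 1 and the total population exchanged in it, the histone genes called would be 1 and 1. In state 3 versus state 2, 1 gene was called, Hist1h1t, which was lower, against 8.59% of all genes called and 3.19% called lower. The median log2 ratio over the 66 genes was 0.56 for state 3 versus state 1, 0.68 for state 2 versus state 1 and -0.10 for state 3 versus state 2. Over the 16795 genes with a mean of at least 5 these medians were -0.0049, -0.0026 and -0.0065. The comparisons share groups, so they are not separate evidence. Genes called against state 1 by both other states numbered 47, and 16 genes were called in no comparison of sorted states.

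For the histone genes the total population lay with states 2 and 3. In state 1 versus the total population 48 histone genes were lower and 0 higher. Few genes were called in this comparison at all, 1.98% in either direction and 1.27% as lower, and the histone genes were 12.7% of the 378 lower calls. Of 10757 other protein-coding genes with a mean of at least 50, 265 were called lower. The median log2 ratio of the 66 was -0.63. In state 3 versus the total population 1 histone gene was called higher, against 19.1% of all genes called and 10.8% called higher, and in state 2 versus the total population 1 was called higher, against 11.1% called and 5.82% called higher. Both calls were Hist3h2ba. Nanog itself had a value of 440.0 in state 3, 743 in state 2, 4145 in state 1 and 2783 in the total population. The total thus lay nearer to state 1 for the sorting gene and nearer to states 2 and 3 for the histone genes.

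In the authors' model each gene is assigned probabilities for 15 patterns of equal and unequal groups. The pattern in which state 1 alone differs was the most probable one for 54 histone genes, or 81.8% of them, and for 204 genes in all, or 0.687% of the table. At a probability of 0.95 with state 1 lower it held for 41 genes, of which 37 were histone genes. The other 4 were Clspn, which encodes a replication checkpoint adaptor, the zinc finger gene Zfp146, the pseudogene Gm13241 and the unclassified locus Gm37139. Clspn had values of 1342 in state 3, 1306 in state 2, 1109 in state 1 and 1351 in the total population. The table does not spell out the patterns, and their order was inferred from the values. That inference leaned on the histone genes: it was met by 94.4% of 1453 RNA-seq features, against 90.8% with state 1 and the total population exchanged, but without the histone genes by 94.3% of 1416 against 93.1%. In the small RNA table, without histone genes, the shares were 93.8% against 78.1% of 160 features. The values themselves, with state 1 lowest for all 66 genes, do not depend on the order.

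The linker histone genes had the smallest ratios of class sums against state 1, with no test of that difference between classes. Their sum was 43105 in state 3, 44252 in state 2, 31617 in state 1 and 45502 in the total population. In state 2 versus state 1 the log2 ratio of this sum was 0.49, and 4 of the 6 genes were called. Hist1h1d, whose value was the highest of all histone genes, had 11152 in state 3, 11958 in state 2, 8824 in state 1 and 12612 in the total population and was not called. Hist1h1a had 9730.2, 9855, 6789 and 10147 in the same order of groups, and it was called against state 1 by both states and the total population. Hist1h1c had 8052, 8548, 6921 and 9173, the smallest ratio of state 2 to state 1 among the 63 genes with a mean of at least 50, at 0.30 on the log2 scale, and was not called. H1 therefore made up more of the histone sum in state 1, with 19.2% in state 3, 18.5% in state 2, 20.6% in state 1 and 19.5% in the total population.

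Hist1h1t encodes the testis linker histone and was the only histone gene called between states 3 and 2. It had values of 58.6 in state 3, 91.0 in state 2, 46.7 in state 1 and 73.8 in the total population. Its log2 ratio was -0.63 for state 3 versus state 2 and 0.95 for state 2 versus state 1. About 163 reads stood behind it in state 3, 325 in state 2, 146 in state 1 and 224 in the total population, and the counting interval of state 3, which ended at 68.4, did not reach that of state 2, which began at 81.4.

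H2A genes rose more than H1 genes in their sum, by a log2 ratio of 0.72 in state 2 versus state 1, with 15 of 18 called. The H2A sum was 40102 in state 3, 43146 in state 2, 26137 in state 1 and 41456 in the total population. Hist2h2aa1 had the highest H2A value, 7167 in state 3, 7208 in state 2, 4663 in state 1 and 7234 in the total population, and was not called. Its neighbour Hist2h2aa2, called against state 1 in both states, had 2970.03, 3184, 2005 and 3338 in that order. These neighbours encode the same protein, and the division of reads between such near-identical copies rests on RSEM's estimate, so single-gene values are less certain than class sums. Hist1h2ap had 5576, 6119, 3766 and 5886, and Hist1h2ab had 3878, 4308, 2766 and 4258, both called in both states against state 1.

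For H2B the sum was 47929 in state 3, 52163 in state 2, 32907 in state 1 and 50520.1 in the total population, with a log2 ratio of 0.66 in state 2 versus state 1 and 14 of 18 genes called. Hist1h2bg led the class with 6965 in state 3, 7782 in state 2, 5141 in state 1 and 7592 in the total population. Hist1h2bq, at 5331, 5510, 3681 and 5497 in that order, was also called in both states against state 1, and Hist1h2bb, at 4682, 5131, 3505 and 5195, was not. The groups kept the same shape in all 3 genes, with state 1 lowest and the other groups close together.

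H3 genes summed to 44072 in state 3, 47073 in state 2, 29041 in state 1 and 44440 in the total population. The log2 ratio in state 2 versus state 1 was 0.70, with 8 of 11 genes called. Hist2h3c2 had 6737 in state 3, 6826 in state 2, 3707 in state 1 and 6242 in the total population. Hist1h3e had 5536, 6073, 3834 and 5793, and Hist1h3b, not called, had 4829, 5192, 3403 and 5049. The H3 genes were the most uniform class: the SD of their log2 ratios in state 2 versus state 1 was 0.0998, against 0.22 among H1 genes, 0.16 among H2A, 0.45 among H2B and 0.17 among H4 genes with a mean of at least 50.

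H4 genes summed to 48767 in state 3, 52741 in state 2, 33681 in state 1 and 51158 in the total population, a log2 ratio of 0.65 in state 2 versus state 1, with 9 of 13 genes called. Hist1h4d had 8036 in state 3, 9540 in state 2, 6306 in state 1 and 8943 in the total population. It was not called, although its log2 ratio in state 2 versus state 1, 0.60, matched that of the called H2B gene Hist1h2bg, 0.60. Hist1h4n was called, with 7361, 8023, 4739 and 7875. Hist1h4a had 5819, 6455, 5085 and 6335, the smallest ratio of state 3 to state 1 among genes with a mean of at least 50, at 0.19, and was not called. Its window lacked GGTCCG, but a link between this motif and the ratio was not tested. Hist1h4d, with the motif, had a ratio of 0.35 in state 3 versus state 1. Hist1h4b, with the motif after the start, had 0.67 and was called. Per kilobase of RefSeq gene span Hist1h4d had the highest level of the 59 genes with a span under 1000 bases, a mean of 20414 over the 4 groups, followed by Hist1h4n with 17240.3, Hist1h2bg with 14806 and Hist1h1d with 14351.

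**Figure D2:**
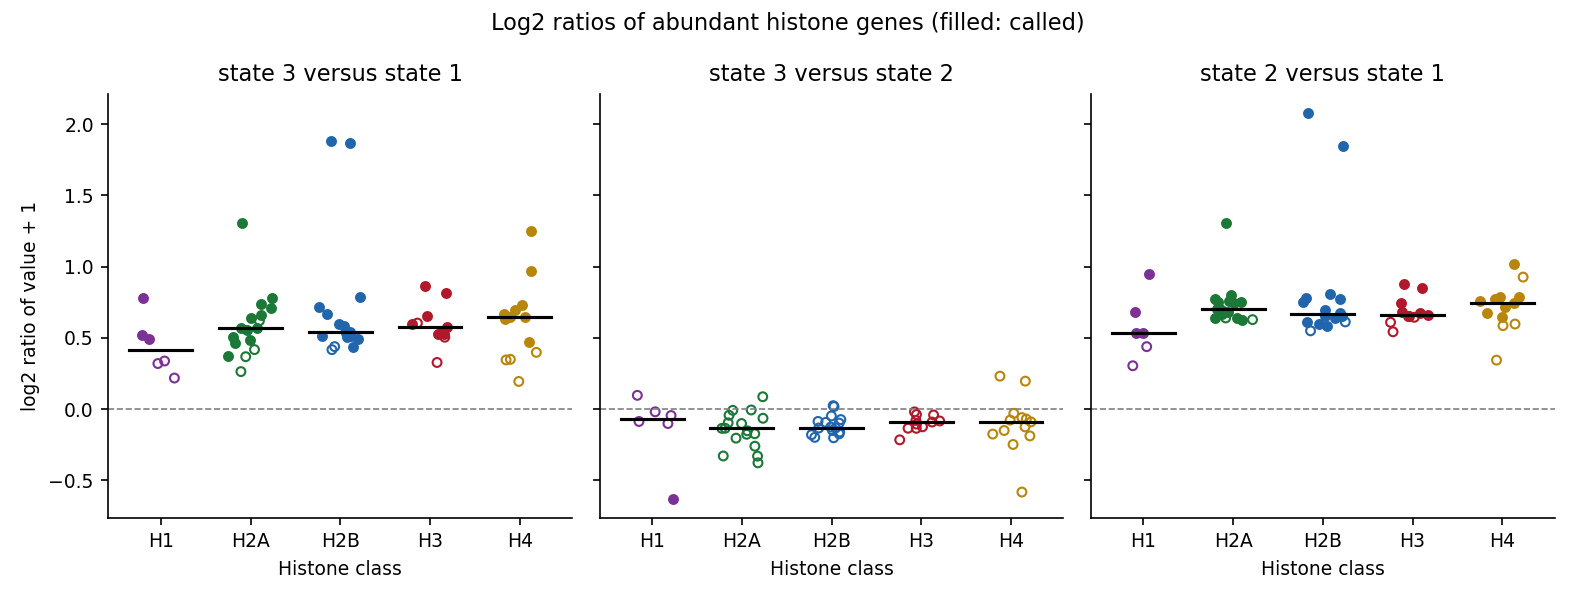
Log2 ratios of value + 1 for the 63 histone genes with a mean of at least 50, by class, in state 3 versus state 1, state 3 versus state 2 and state 2 versus state 1. Filled points were called, open points were not, and bars mark class medians. All ratios against state 1 are above 0, and in state 3 versus state 2 most lie slightly below 0.

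State 2 was above state 3 in 57 of the 63 genes with a mean of at least 50, and it was the highest of the 4 groups in 44. The total population was highest in 13 and state 3 in 6. The median difference between states 3 and 2 was small, and Hist1h1t was the only call. Hist1h4m, at a log2 ratio of -0.58, Hist1h2ao, at -0.38, and Hist2h2ab, at -0.33, differed more than the median but were not called. Of the 63, 6 were higher in state 3 than in state 2, Hist4h4 and Hist2h4 by the most.

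Among genes with a mean of at least 50, the widest differences from state 1 beside Hist1h2br lay in the Hist3 and Hist4 genes. Hist3h2ba, an H2B gene on chromosome 11, had 931 in state 3, 916 in state 2, 254 in state 1 and 548 in the total population. Its log2 ratio was 1.87 in state 3 versus state 1 and 1.84 in state 2 versus state 1. The exact Poisson interval of its value was 896 to 968 in state 3, 884 to 948 in state 2, 237 to 273 in state 1 and 521 to 574 in the total population. The total population lay between state 1 and the other states by more than counting error. Its neighbour Hist3h2a, an H2A gene, had 2833 in state 3, 2844 in state 2, 1147 in state 1 and 2019 in the total population, log2 ratios of 1.30 and 1.31 against state 1. The pseudogene Hist3h2bb-ps, which shares their cluster and is not protein-coding, showed a like profile, with 345 in state 3, 290.01 in state 2, 82.1 in state 1 and 177 in the total population. Hist4h4, the lone H4 gene on chromosome 6, had 2447 in state 3, 2084 in state 2, 1027 in state 1 and 1735 in the total population, with log2 ratios of 1.25 and 1.02 in states 3 and 2 versus state 1.

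On chromosome 3 the Hist2 genes with a mean of at least 50 had a median log2 ratio of 0.70 in state 3 versus state 1, and 7 of 8 were called. Hist2h4, an H4 gene, had 1365 in state 3, 1191 in state 2, 696 in state 1 and 1204 in the total population, a log2 ratio of 0.97 in state 3 versus state 1. Hist2h3b, an H3 gene, had 3653, 3750, 2075 and 3297, and Hist2h2ac, an H2A gene, had 1667, 1569, 972 and 1601. Hist2h2bb, an H2B gene, had 4042, 4409, 2832 and 4446. Hist2h2ab was low, at 101, 127, 77.8 and 109, and was called against state 1 in both states.

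Within the Hist1 cluster on chromosome 13, Hist1h2br stood out among H2B genes. It had 401 in state 3, 461 in state 2, 108 in state 1 and 323 in the total population, with log2 ratios of 1.88 in state 3 and 2.08 in state 2 versus state 1, the largest of all histone genes in both comparisons. Its RefSeq span is 3788 bases, as is that of Hist1h2bq, a longer annotation than that of most members, 59 of which span under 1000 bases. Both genes also have CCAAT at -172, -114 and -75 from the start, and Hist1h2bq had 3681 in state 1. The part of RSEM's division of reads between such similar genes in the large ratio of Hist1h2br was not tested. The other genes named by size of ratio were Hist1h2bh (2635 in state 3, 2809 in state 2, 1603 in state 1 and 2684 in the total population), Hist1h2ad (2446, 2556, 1469 and 2434), Hist1h4i (1546, 1610.2, 933 and 1579) and Hist1h4j (1993, 2120, 1231 and 2049). Hist1h2bf and Hist1h2bn, both H2B genes, had 1805 and 1576 in state 3, 2044 and 1556 in state 2, 1191 and 912 in state 1, and 1815 and 1399 in the total population. State 1 was lowest in each of these 6 genes, and the other 3 groups lay close together.

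The other 31 genes with a mean of at least 50 ranged from 58.6 to 7825 in state 3, from 76.3 to 7315 in state 2, from 48.6 to 4566 in state 1 and from 55.2 to 6837 in the total population. Their log2 ratios ran from 0.26 to 0.78 in state 3 versus state 1 and from 0.54 to 0.93 in state 2 versus state 1, with 23 and 25 of them called. The remaining 3 genes were low, and none of them was called. Hist1h2aa and Hist1h2ba encode the testis forms of H2A and H2B and had 15.6 and 11.1 in state 3, 19.4 and 10.7 in state 2, 6.77 and 5.66 in state 1, and 12.7 and 11.0 in the total population. Hist2h2be, an H2B gene known from olfactory neurons, had 16.6 in state 3, 17.4 in state 2, 15.2 in state 1 and 35.8 in the total population.

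Position along the chromosome was compared next. Runs of genes with gaps under 100 kb gave 4 runs on chromosome 13 with 17, 5, 29 and 2 genes, and 1 run on each of chromosomes 3, 11 and 6 with 9, 2 and 1. Over genes with a mean of at least 50, the median log2 ratio of state 2 versus state 1 was 0.75, 0.76 and 0.64 in the first 3 runs on chromosome 13, 0.70 on chromosome 3, 1.58 on chromosome 11 and 1.02 on chromosome 6. Genes from an H2A and an H2B in opposite orientation formed 9 pairs whose starts lay 163 to 280 bases from each other. In Hist1h2ae and Hist1h2bg, such a pair, the log2 ratios of state 2 versus state 1 were 0.68 and 0.60. Over the 9 pairs the difference between partners in this ratio ran from 0.0031, in Hist1h2an and Hist1h2bp, to 0.58, in the low testis genes Hist1h2ba and Hist1h2aa, and was 0.14 in Hist1h2ah and Hist1h2bk. H2A and H2B genes with the octamer had a median of 0.65 (12 genes) and those without it 0.75 (19 genes), a description of overlapping ranges with no test.

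Among genes that act on the histone genes, more were lower than higher in states 3 and 2. Of 9 genes of histone gene transcription, 1 was higher and 3 lower in state 3 than in state 1. In state 2 versus state 1, 1 was higher and 4 lower. Over all genes 11.4% were called higher and 9.01% lower in state 3, and 7.11% higher and 6.33% lower in state 2, each versus state 1, so 1 higher gene of 9 is near the background. Among 10757 other protein-coding genes with a mean of at least 50, 2370 were higher and 2290 lower in state 3. In state 2, 1522 of them were higher and 1641 lower. Ccne2, which encodes a cyclin that drives S phase entry, was the higher one, at 430.0 in state 3, 290.2 in state 2, 178 in state 1 and 292 in the total population. E2f1, an S phase transcription factor, was lower, at 335 in state 3, 384 in state 2, 573 in state 1 and 470.3 in the total population. Pou2f1 and Gon4l were lower too, with log2 ratios of -0.40 and -0.30 in state 3 versus state 1. Npat, the cofactor of the histone clusters, had 1192 in state 3, 1226 in state 2, 1206 in state 1 and 1338 in the total population and was not called. Hinfp, the H4 gene factor, was not called either, at 472, 450.4, 478 and 518.

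Of 17 genes of histone mRNA 3′ end processing, 0 were higher and 5 lower in state 3 than in state 1. In state 2, 3 were lower than in state 1. Over all genes 9.01% and 6.33% were called lower. Among 10757 other protein-coding genes with a mean of at least 50, 2290 were lower in state 3 and 1641 in state 2. The 3 of 17 in state 2 is near the share of these genes. Zfp473, known from human cells to act with the U7 particle that cuts histone pre-mRNA, had 388 in state 3, 561 in state 2, 806 in state 1 and 698 in the total population. Srrt, Snrpf and Cpsf3, which encodes the cleaving nuclease, had log2 ratios of -0.49, -0.36 and -0.34 in state 3 versus state 1. Slbp, the stem-loop binding protein, was not called, with 1752 in state 3, 1711 in state 2, 1620.3 in state 1 and 1713 in the total population. Of 10 genes of histone mRNA decay, Dcp2, a decapping enzyme, was the only one called, at 2395 in state 3, 2392 in state 2, 3903 in state 1 and 3464 in the total population, and 1 of 10 is near the share of all genes called lower.

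The genes listed as replication-independent, which make histone variants, did not as a list follow the clustered genes. Of 11, 0 were higher and 5 lower in state 3 than in state 1, and 1 was higher and 5 lower in state 2 than in state 1. Over all genes 9.01% and 6.33% were called lower. Among 10757 other protein-coding genes with a mean of at least 50, 2290 were lower in state 3 and 1641 in state 2. H2afy, which encodes macroH2A1, had 1024 in state 3, 1401 in state 2, 2172 in state 1 and 1931 in the total population. H2afv, Cenpa, the centromeric H3, and H1fx had log2 ratios of -0.77, -0.76 and -0.69 in state 3 versus state 1. H3f3a, an H3.3 gene, was the one higher in state 2 than in state 1, by a log2 ratio of 0.10. H3f3b had log2 ratios of 0.35 in state 3 and 0.21 in state 2 versus state 1 and was not called. Of 21 genes of histone chaperones and proteins that act with them, 8 were lower and 0 higher in state 3 than in state 1, beside the same 9.01%. Among the 8 were Asf1b, Hat1, Daxx and Tonsl with ratios of -0.64, -0.60, -0.53 and -0.42. Hat1 encodes a histone acetyltransferase, and the list also holds the importin gene Ipo4.

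Markers of S, G2 and M phase were lower in states 3 and 2 than in state 1, whereas the histone genes were higher in states 3 and 2. Of 23 S phase genes, 13 were lower and 0 higher in state 3 than in state 1, with a median log2 ratio of -0.31. In state 2 versus state 1, 10 were lower and 0 higher, with a median of -0.26. Cdt1, which licenses replication origins, had 2129 in state 3, 2526 in state 2, 3847 in state 1 and 3077 in the total population, and Rpa2, Gins1 and Pola1 had log2 ratios of -0.55, -0.52 and -0.49 in state 3 versus state 1. Of 20 G2 and M phase genes, 14 were lower and 0 higher in state 3 than in state 1, and 10 were lower and 0 higher in state 2 than in state 1, with medians of -0.57 and -0.35. Nusap1, Ube2c, Aurkb and Top2a, genes of the spindle, cyclin destruction and chromosome separation, had ratios of -1.11, -1.08, -1.06 and -1.05 in state 3 versus state 1. These shares stand beside background calls of 9.01% lower in state 3 and 6.33% lower in state 2 versus state 1. Among 10757 other protein-coding genes with a mean of at least 50, 2290 were lower in state 3 and 1641 in state 2. In bulk samples, fewer cells in a phase and less RNA per cell cannot be told apart.

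**Figure D3:**
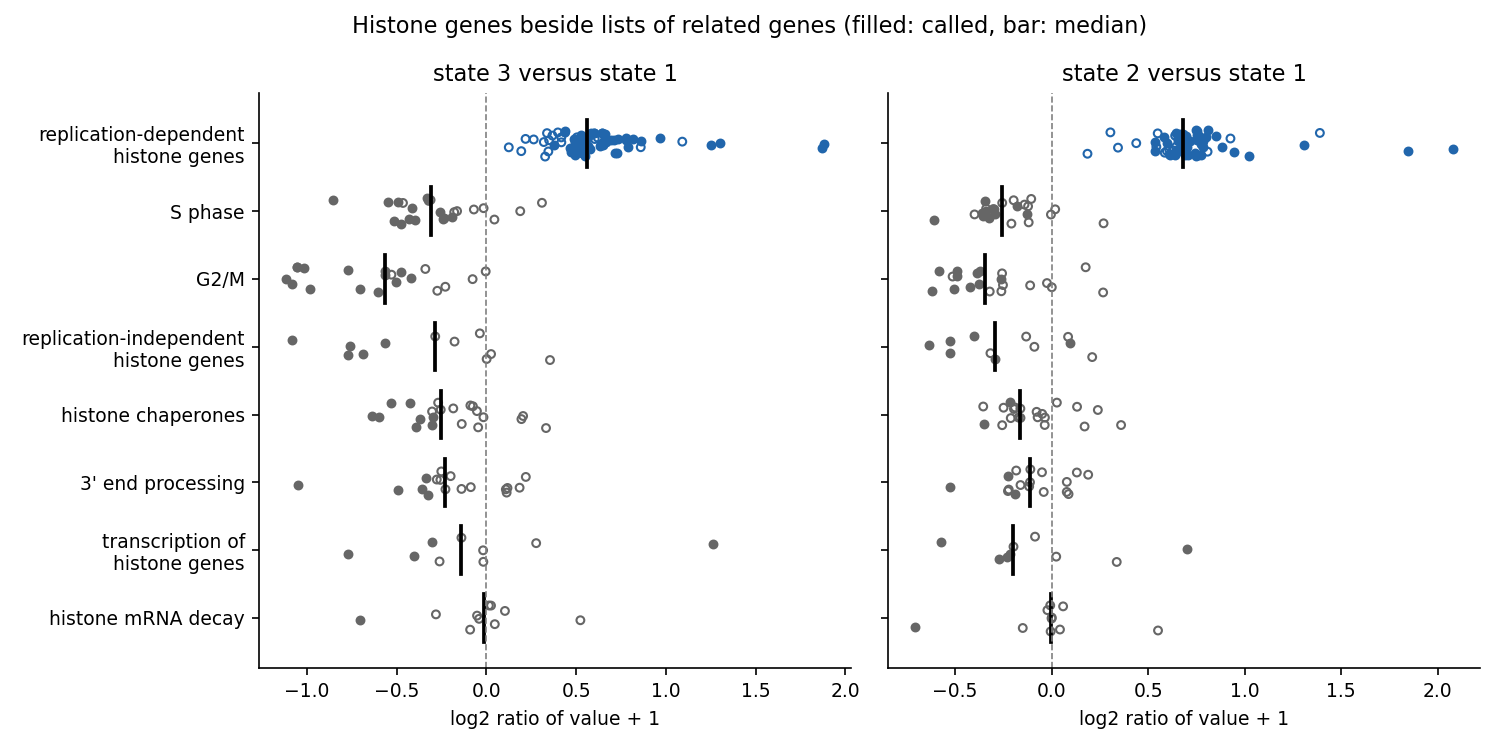
Log2 ratios of value + 1 for the 66 histone genes and for 7 lists of related genes, in state 3 versus state 1 and state 2 versus state 1. Filled points were called, open points were not, and bars mark medians. The histone genes lie to the right of 0, and the medians of the S phase, G2/M and other lists lie at or left of 0.

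Marker lists described the sorted states. The pluripotency list holds Nanog and Sox2, by which the cells were sorted, so these members are no separate check. Of 10 pluripotency markers, 7 were lower in state 3 and 6 in state 2 than in state 1, Esrrb with 602 in state 3, 1945 in state 2, 9206 in state 1 and 6799 in the total population, and Sox2 with 1306, 3167, 4155 and 3954. Summed markers of other cells were highest in state 3, though not every marker was. The 9 feeder fibroblast markers measured summed to 1234 in state 3, 213 in state 2, 102 in state 1 and 225 in the total population. The 10 primitive endoderm markers summed to 2617, 1316, 1473 and 1406 in that order, and the 10 trophectoderm markers to 10891, 2968, 1339 and 2294. Of the trophectoderm markers 8 were higher and 1, Tfap2c, was lower in state 3 than in state 1, and the primitive endoderm marker Foxa2 had 100.3 in state 3, 143 in state 2, 5.77 in state 1 and 34.8 in the total population. Defining markers at or near 0 in every group were Elf5 for trophectoderm and Lum for fibroblasts. Histone sums were near each other in state 3 and state 2, where these marker sums differed, and their part in the result was not tested.

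Median ratios of small nuclear, small nucleolar and Cajal body RNAs in the same libraries were above 0 in state 3 and below 0 in state 2, each versus state 1. With a mean of at least 50, the median log2 ratio was -0.15 for 26 small nuclear RNAs, -0.11 for 23 small nucleolar RNAs and -0.03 for 6 Cajal body RNAs, with 0 called in either direction, and -0.12 for 23 other protein-coding genes with a RefSeq span under 1000 bases. In state 3 versus state 1 the medians of these RNAs were 0.95, 0.63 and 0.35, beside 0.56 for the histone genes, with 2 small nuclear, 6 small nucleolar and 0 Cajal body RNAs called higher and 0 lower. The median of the other short genes was -0.18. The part of such RNAs in the histone result for state 3 was not tested. About 48.0 M reads in state 3, 60.4 M in state 2, 55.4 M in state 1 and 52.1 M in the total population were estimated behind the RNA-seq columns.

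In the small RNA table, which counts fragments of short length, 60 of the 66 genes were listed. Their median log2 ratio of state 2 versus state 1 was 0.043, with 0 genes called and 0.696% of features called. Column totals were 2.61 M, 3.43 M, 5.13 M and 4.15 M in states 3, 2 and 1 and the total population. This median is not scaled for these totals and was not recomputed at equal totals. The histone sum was 0.0540%, 0.0618%, 0.0434% and 0.0602% of its column in the same order, lowest in state 1. Not scaled for the column totals, this sum was 1408 in state 3, 2119 in state 2, 2227 in state 1 and 2499 in the total population. In that form it was lowest in state 3, and state 1 lay above state 2. In state 3, 2 histone genes were called relative to state 1, in opposite directions, against 1.63% of features, 1 relative to state 2, against 0.97%, and 1 relative to the total population, against 1.38%. Hist1h1c had a value of 181 in state 3, 909 in state 2, 1112 in state 1 and 1350 in the total population. It was lower in state 3 than in state 2, by a log2 ratio of -2.32, in state 3 than in state 1, by -2.61, and in state 3 than in the total population, by -2.89, and 0.666%, 1.08% and 0.986% of features were called lower in these comparisons. With the columns rescaled to 1 total, the ratio was -1.64 versus state 1 and -1.93 versus state 2. Its fragments were 12.8% of all histone values in state 3, 42.9% in state 2, 49.9% in state 1 and 54.0% in the total population, while in RNA-seq it was among the genes with the smallest differences. Hist3h2a, with 37.4 in state 3, 26.3 in state 2, 11.5 in state 1 and 22.6 in the total population, was higher in state 3 than in state 1 by a log2 ratio of 1.61, against 0.552% of features called higher, and by 2.54 after that rescaling. Without Hist1h1c the sums, not scaled for the column totals, were 1228 in state 3, 1211 in state 2, 1115 in state 1 and 1150 in the total population.

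**Figure D4:**
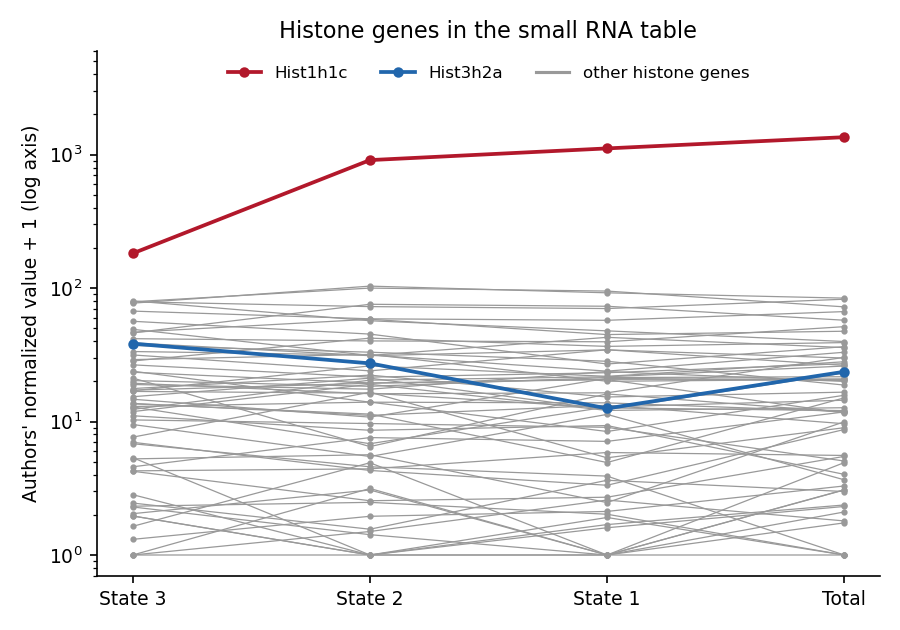
Values + 1 of the 60 histone genes listed in the small RNA table on a log axis, 1 line per gene, in the 4 groups. Hist1h1c lies far above the other histone genes in state 2, state 1 and the total population and drops to 181 in state 3, and Hist3h2a is lowest in state 1.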

How the data were processed

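RNA-seq covered 12 libraries and small RNA-seq 8, in 4 groups. Per the labels' protocols, sorted cells gave Trizol RNA, and rRNA was depleted and the strand marked by dUTP for RNA-seq. Tools named in the submitters' processing notes are RSEM 1.2.30 and STAR 2.4.1d, with builds GRCm38 and mm10, and the table names mention GENCODE M15 and EBSeq. The authors deposited a normalized signal per feature and group, not scaled to a fixed total, and their way of merging libraries into it is not stated in these sources. The authors also deposited a score, the posterior probability of each of 15 patterns in which the groups are alike or differ. The planned calls were made from these scores at 0.95, with no p-value, since the tables hold no library values, and the labels do not say that libraries came from separate cultures. The sums over patterns were run on simulated probabilities in which the true pattern dominated, which does not test the inferred order of groups. The histone genes, lists and tests were chosen with earlier results of these data known.

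Genes named were the 3 with the highest mean per class, the 15 called genes with the largest log2 ratio, and the Hist2, Hist3 and Hist4 genes with a mean of at least 50. From each other list, up to 4 called genes with the largest ratio in state 3 versus state 1 were named, with further genes added for their role or for cell markers. Positions and promoters are from RefSeq genes of GRCm38.p6, matched by older symbol for 65 of 66 genes. Reads behind a value were estimated from the commonest low value of each column, and 0 allows up to 3 reads. Marker and gene list names absent from the table were left out, and 18 features had no name. Python 3.11.15, numpy 2.4.6, pandas 2.3.3 and scipy 1.17.1 were used. Alternatives were the probability limit, the pattern order, filters on low values, pseudocounts and column scalings.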

Additional observations from a re-analysis of the deposited data

How the results depend on the processing

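The excess of the histone genes over state 1 kept its direction under every alternative run, but the group from which it is read depends on the inferred pattern order. With state 1 and the total population exchanged in that order, 1 histone gene was called in state 3 versus state 1 and 1 in state 2 versus state 1, while 47 were called in state 3 versus the total population and 50 in state 2 versus the total population. In that case the calls would go against the group values, in which state 1 was lowest for all 66 genes. A probability limit of 0.99 left 0 calls in state 3 versus state 2, 0 in state 3 versus the total population and 0 in state 2 versus the total population. A limit of 0.90 gave 3 in state 3 versus the total population and, in the small RNA table, 2 in state 3 versus state 2.

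Scaling columns to equal upper quartiles of expressed genes shifted all ratios of state 2 versus state 1 by 0.11, those of state 3 versus state 2 by -0.096 and others by less, and changes are best read relative to the median gene. The median ratio of the histone genes became -0.20 in state 3 versus state 2, 0.79 in state 2 versus state 1, 0.11 in state 2 versus the total population and -0.68 in state 1 versus the total population. The log2 ratio of the summed values became 0.56 in state 3 versus state 1, -0.19 in state 3 versus state 2 and 0.75 in state 2 versus state 1. In state 2 versus state 1 the classes gave 0.60 for H1, 0.83 for H2A, 0.78 for H2B, 0.81 for H3 and 0.76 for H4. With equal totals without the noncoding gene Gm26917, which took 10.4% to 12.6% of a column, the sums gave 0.57, -0.12 and 0.69 in the same comparisons, and 0.53, 0.77, 0.71, 0.74 and 0.69 by class. Without the most abundant gene the sum gave 0.56 in state 3 versus state 1 and 0.65 in state 2 versus state 1, and the classes gave 0.50, 0.74, 0.68, 0.67 and 0.66. Medians in place of sums gave 0.55 in state 3 versus state 1 and 0.68 in state 2 versus state 1, and 0.54 for H1, 0.70 for H2A, 0.66 for H3 and 0.75 for H4. These sums moved past counting error, which is narrow at this depth, and no direction changed.

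Rescaling the small RNA columns to 1 total moved Hist1h1c to -1.64 in state 3 versus state 1 and -1.93 in state 3 versus state 2, and Hist3h2a to 2.54 in state 3 versus state 1. No paired analysis was possible because the tables hold 1 value per group, and for the same reason no replicate could be left out. Those alternatives were not run. At this depth a value of 0 allows up to 3 reads over a group, 0.84 to 1.08 in RNA-seq value units, and no histone gene was at 0.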
